A study of Mus musculus with 86 samples.

Results

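The genes described here are 8 stimulus-responsive genes of mouse skeletal muscle: the orphan nuclear receptor genes Nr4a1, Nr4a2 and Nr4a3, the AP-1 subunit genes Fos and Junb, the zinc finger factor gene Egr1, the stress-induced factor gene Atf3, and Gadd45b, which encodes a stress-inducible regulator of kinase signalling. They were taken by name from a table of 42807 genes, and all 8 passed the filter on low counts in both muscles. The list was selected on earlier results of these data, whose values for these genes are not given in the sources used here, so the tests of treatment groups given for them describe these libraries and are no independent support for the choice.

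The study set dexamethasone, a synthetic glucocorticoid, against extracts of the herbal formula Jakyak-gamcho-tang (JGT) in gastrocnemius (GA), a mostly fast muscle, and soleus (SO), which holds many slow fibres. In all groups the mice were 10-week-old male C57BL/6N animals. Those of the DEX group had 25 mg/kg dexamethasone intraperitoneally each day for 10 days and phosphate-buffered saline (PBS) by gavage. Mice of the 7 treated groups had the same dexamethasone and, 30 minutes later, a gavage of a JGT water extract at 100 or 400 mg/kg, or of resveratrol (RSV) at 200 mg/kg. The 3 extracts differed in the weight ratio of peony root to liquorice root, which was 2 to 1 in JGT02, 1 to 1 in JGT03 and 1 to 2 in JGT04. The non-treated mice had PBS by both routes. The extracts and resveratrol were given in PBS with carboxymethylcellulose and the DEX group had PBS, so this vehicle cannot be told apart from the treatment in comparisons with DEX. RNA came from whole snap-frozen muscles taken under avertin anaesthesia about a day after the last treatment, so the values are levels after repeated dosing. The time between anaesthesia and freezing is not given in the sources used here. Each group had 5 libraries per muscle, except DEX and JGT04 at 400 mg/kg with 4, which made 86 libraries.

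Immediate-early genes are transcribed within minutes of a stimulus without new protein synthesis, through factors already in place such as CREB, SRF and MEF2. Their transcripts are short-lived, so that a level reports the recent state of the tissue. In skeletal muscle the Nr4a genes are known to respond to contraction and to beta-adrenergic signalling and to act on genes of glucose use and oxidative metabolism, while Fos, Junb and Egr1 respond to exercise, growth factors and injury.

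The promoters are shown because the Nr4a genes are classical targets of CREB, which binds the cyclic AMP response element (CRE). RefSeq promoter records on GRCm38.p6 matched 7 of the 8 genes, with none for Egr1. Each sequence is the 250 bases before the annotated start, 5′ to 3′ on the gene's strand, and capitals mark the CRE core TGACG on either strand (CGTCA where it lies on the opposite strand). The windows shown are chr15:101266596-101266845 on the plus strand for Nr4a1, chr2:57124004-57124253 on the minus strand for Nr4a2, chr4:48045055-48045304 on the plus strand for Nr4a3, chr12:85473640-85473889 on the plus strand for Fos and chr10:80929841-80930090 on the plus strand for Gadd45b. Fos, with 2 cores, and Gadd45b, with none, are set beside the 3 receptor genes for comparison. The starts are those of the RefSeq records and can differ from the GENCODE gene positions given below. The Nr4a1 window, and that of Atf3, not shown, lie inside the GENCODE gene. The windows of Nr4a3 and Gadd45b run past the GENCODE gene starts at 48045153 and 80930073.
Nr4a1: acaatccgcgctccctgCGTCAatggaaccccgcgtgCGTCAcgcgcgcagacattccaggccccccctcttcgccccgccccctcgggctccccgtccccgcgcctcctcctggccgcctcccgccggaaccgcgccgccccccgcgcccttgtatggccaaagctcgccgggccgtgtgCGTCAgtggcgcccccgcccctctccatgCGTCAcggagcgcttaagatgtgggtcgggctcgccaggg
Nr4a2: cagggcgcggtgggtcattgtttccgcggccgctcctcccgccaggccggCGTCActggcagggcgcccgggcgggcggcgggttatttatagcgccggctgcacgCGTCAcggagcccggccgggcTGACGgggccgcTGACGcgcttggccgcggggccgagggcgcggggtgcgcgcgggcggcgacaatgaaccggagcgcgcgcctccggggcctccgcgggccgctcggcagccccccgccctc
Nr4a3: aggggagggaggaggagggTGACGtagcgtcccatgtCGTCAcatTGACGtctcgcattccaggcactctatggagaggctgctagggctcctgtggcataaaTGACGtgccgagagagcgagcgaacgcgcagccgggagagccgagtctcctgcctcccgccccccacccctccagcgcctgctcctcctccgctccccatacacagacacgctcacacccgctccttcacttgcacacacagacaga
Fos: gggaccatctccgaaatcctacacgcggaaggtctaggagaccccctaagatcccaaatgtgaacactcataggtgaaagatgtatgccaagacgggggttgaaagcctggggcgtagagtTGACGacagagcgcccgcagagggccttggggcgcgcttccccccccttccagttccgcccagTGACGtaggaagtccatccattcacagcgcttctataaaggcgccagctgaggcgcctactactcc
Gadd45b: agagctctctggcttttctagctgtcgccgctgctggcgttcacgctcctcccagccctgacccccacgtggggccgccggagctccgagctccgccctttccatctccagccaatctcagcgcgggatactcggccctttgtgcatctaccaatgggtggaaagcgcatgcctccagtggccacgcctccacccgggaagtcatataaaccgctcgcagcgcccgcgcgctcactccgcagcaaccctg
The core was found 4 times in each of the 3 Nr4a promoters, 2 times in that of Fos and once each in those of Junb and Atf3. Of 32851 mouse promoters of this length, 17.8% held at least 1 core, 3.9% at least 2 and 0.137% at least 4. The full palindrome TGACGTCA, which contains the core on both strands, was in none of the 7 and in 1.55% of all promoters. In Nr4a1 each of the 4 cores was part of the variant TGCGTCA, which 1.75% of all promoters held. Neither the AP-1 motif TGANTCA, the Nr4a response element AAAGGTCA nor the CArG box was in any of the 7 windows, against 6.75%, 1.34% and 1.47% of all promoters. The EGR motif GCGNGGGCG was in the windows of Nr4a1, Nr4a2 and Gadd45b, and the TATA box letters TATAAA in those of Nr4a2, Fos and Gadd45b, against 4.7% and 12.4% of all promoters. In Nr4a2 the TATAAA match lies on the strand opposite to the gene, and in Fos and Gadd45b on the gene's strand. All motifs were searched on both strands, and a match describes letters and not a bound site. The promoters of these genes were rich in G and C, from 58.4% in Fos to 80.0% in Nr4a2, beside a median of 52.4% over all promoters, and G and C content alone changes how often such motifs occur.

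The libraries held 18751740 to 34626901 expected counts. Levels are given as CPM, counts relative to the total of a library after TMM scaling within a muscle. GA libraries were high in fast-fibre and SO libraries in slow-fibre markers, as their labels say, apart from 3 libraries. These were GA JGT02 100 mouse 1, SO JGT02 100 mouse 5 and SO JGT02 400 mouse 1. The slow myosin gene Myh7 stood at 27.3 and 14.4 CPM in these SO libraries, against 4180 to 9140 CPM in the other SO libraries. The embryonic myosin gene Myh3 stood at 1240 CPM in that GA library, against 2.65 to 25.9 CPM in the other GA libraries, and at 1060 CPM in SO JGT02 100 mouse 5. They stayed in the fits. Summed macrophage markers were 1110 CPM in the GA library, 1300 CPM in SO JGT02 100 mouse 5 and 24.8 CPM in SO JGT02 400 mouse 1, whose summed fast-fibre markers were 63300 CPM, against 12400 to 18000 CPM in SO DEX libraries. A further library, SO DEX mouse 4, had summed macrophage markers of 148 CPM, against 23.1 to 39.1 CPM in the other SO DEX libraries and 19.4 to 43.7 CPM in SO non-treated libraries.

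Per kilobase of exon, Nr4a1 was the most abundant of the 8 transcripts in GA, at a mean of 38.8 CPM per kb in DEX muscle and 23.1 CPM per kb in non-treated muscle. Nr4a3 lay at 1.5 CPM per kb in GA DEX and 0.252 CPM per kb in GA non-treated libraries, and Nr4a2 at 0.404 and 0.365 CPM per kb in the same groups. In SO, Junb had the highest mean in the DEX group at 21.3 CPM per kb, and Nr4a1 in the non-treated group at 10.3 CPM per kb. The Junb mean of SO DEX rests on mouse 4 at 143 CPM, against 13.7 to 22 CPM in the other DEX libraries. The median of SO DEX was 19.4 CPM for Junb and 60 CPM for Nr4a1. The levels of Junb carry a limit: its exons overlap those of Prdx2 on the opposite strand and 6.51% of its 31-base stretches recur elsewhere in the transcriptome. The library kit kept strand, but the sources used here do not say whether the counting used it.

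Nr4a3, an orphan receptor gene at chr4:48045153-48086447 (GRCm38, plus strand), was the 1 gene of the 8 that passed the test in DEX against non-treated muscle and in all 7 treated groups against DEX, in both muscles. It was higher in DEX than in non-treated muscle and lower than in DEX in every group that had an extract or resveratrol after dexamethasone. In GA it stood at 10.7, 2.92, 3.05 and 19.3 CPM in the 4 DEX libraries, against 1.2, 0.858, 2.39, 1.91 and 1.18 CPM in the 5 non-treated libraries. Every GA DEX library lay above every non-treated library, and DEX mice 1 and 4 lay several-fold above the other DEX mice. The log2 fold change was 2.58 ± 0.40 (SE), or 6-fold, with an adjusted p of 2.31e-05 (edgeR quasi-likelihood test, Benjamini-Hochberg over 14484 genes). Without GA DEX mouse 4 and the 3 libraries that stand apart it was 1.91, with an adjusted p of 7.89e-06.

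In SO, Nr4a3 stood at 3.64, 2.16, 9.81 and 9.46 CPM in the DEX libraries, against 2.01, 2.01, 2.0, 0.861 and 2.0 CPM in the non-treated libraries. Again all DEX libraries lay above all non-treated libraries, with DEX mouse 2 only just above them. The log2 fold change was 1.82 ± 0.36 with an adjusted p of 0.000744 over 14811 genes, and 1.56 with an adjusted p of 0.00103 without SO DEX mouse 4 and the 3 libraries that stand apart.

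The 34 treated GA libraries had a lowest Nr4a3 level of 0.939, a median of 1.745 and a highest of 5.08 CPM. The highest was the library that stands apart, GA JGT02 100 mouse 1, and without it the highest was 2.97 CPM, in reach of the lowest GA DEX library at 2.92 CPM. Nr4a3 was lower than in DEX in all 7 treated GA groups, by log2 fold changes of -1.91 (JGT03 400) to -2.66 (JGT04 400), each with an SE of 0.38 to 0.44 and adjusted p-values of 0.000181 to 0.0164, while 0.0069% to 1.48% of all genes were called lower by group. In SO the 34 treated libraries had a lowest level of 0.609, a median of 1.4 and a highest of 3.62 CPM. The SO log2 fold changes against DEX ran between -1.53 (JGT02 400) and -2.89 (RSV), with adjusted p-values of 9.03e-06 to 0.0118, so Nr4a3 passed the test in 7 of 7 groups there too, with 2.08% to 7.89% of all genes called lower. These 7 comparisons share the 4 DEX libraries of the muscle, so they are not 7 separate tests of the DEX level. Without GA DEX mouse 4 the GA calls were lost for JGT02 100 (-1.24, adjusted p = 0.0514), JGT03 100 (-1.44, 0.393) and JGT03 400 (-1.22, 0.16). The SO call for JGT03 400 was lost without SO DEX mouse 3 (-1.33, 0.0584) or mouse 4 (-1.36, 0.0574). The JGT03 100 call in GA was also lost without GA DEX mouse 1 (adjusted p = 0.104) or without mouse 2, 3, 4 or 5 of its own group. With DEX mouse 4 of the muscle and the 3 libraries that stand apart all left out, Nr4a3 passed in 7 of 7 groups of GA and of SO. Fitted with only the groups compared, it passed in 5 of 7 GA groups and 2 of 7 SO groups.

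**Figure D1:**
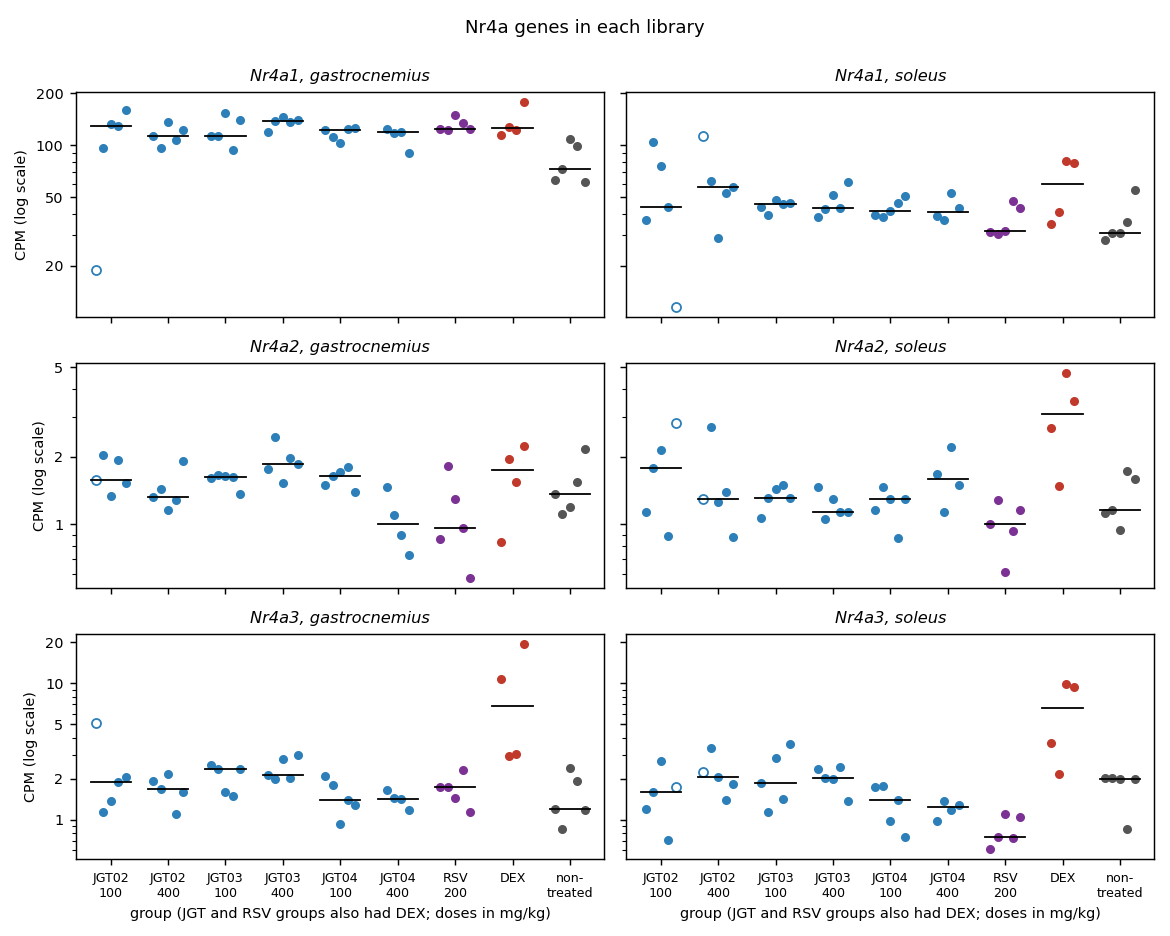
Nr4a1, Nr4a2 and Nr4a3 in every library of gastrocnemius (GA) and soleus (SO), in CPM on a log axis, by group. Points are libraries, open circles are the 3 libraries that stand apart, and black bars are group medians. All 4 DEX libraries of each muscle lie above all 5 non-treated libraries for Nr4a3, and the median of every treated group lies below the lowest DEX library.

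Group means of Nr4a3 in GA were 8.99 ± 7.77 CPM in DEX (SD, n = 4) and 1.51 ± 0.625 CPM in non-treated muscle (SD, n = 5). Treated GA means ran between 1.42 ± 0.189 CPM with JGT04 at 400 mg/kg (SD, n = 4) and 2.39 ± 0.462 CPM with JGT03 at 400 mg/kg (SD, n = 5), and neighbours in this order lay within each other's spread. In SO the DEX mean was 6.27 ± 3.94 CPM (SD, n = 4) and the non-treated mean 1.78 ± 0.512 CPM (SD, n = 5). The lowest SO mean was that of RSV, at 0.85 ± 0.215 CPM (SD, n = 5), and single treated groups were not tested against non-treated muscle. Over the mean of all 8 DEX-injected groups, Nr4a3 did not pass against non-treated muscle, at log2 fold changes of 0.58 ± 0.30 in GA and 0.05 ± 0.26 in SO (adjusted p = 0.188 and 0.927).

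The libraries in the order of the deposited table were split into 3 consecutive runs, of 32, 28 and 26 libraries, taken from earlier work on these data. The first run ended with GA JGT04 100 mouse 3 and the second with SO JGT02 400 mouse 3. No label or column name marks these runs, and all labels carry the same batch name. The sources used here do not say whether a run is a sequencing or an extraction batch. Run and treatment partly cannot be told apart. In GA, DEX and every JGT02 and JGT03 library lay in the same run, and the drops of Nr4a3 in these 4 groups were therefore seen within a run. In SO, DEX shared its run with all 5 JGT02 100 libraries and 3 of the JGT02 400 libraries, while all JGT03, JGT04 and RSV libraries lay in the next run. Within the shared run Nr4a3 was lower with JGT02 100 (log2 fold change -1.98, adjusted p = 0.000907). That p-value is from the edgeR fit of all SO libraries, which takes the spread from both runs. Fitted with only SO DEX and SO JGT02 100, the Nr4a3 call was lost, in a fit that called 0 of all genes. The GA calls of JGT02 100 and JGT03 100 were also lost with only the groups compared. With the run as a term, Nr4a3 passed in 5 of 7 GA groups and 2 of 7 SO groups.

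Nr4a1 (chr15:101254269-101274795, plus strand), the most abundant of the receptor genes, encodes the orphan receptor also known as Nur77. In GA it stood at 115, 128, 123 and 178 CPM in DEX libraries, against 62.7, 73.1, 109, 99.1 and 60.9 CPM in non-treated libraries. The groups did not overlap, but the log2 fold change of 0.75 ± 0.27 missed the threshold (adjusted p = 0.079), and it passed at 0.75 with an adjusted p of 0.00014 without the 3 libraries that stand apart. The treated GA libraries had a lowest of 18.9, a median of 123.5 and a highest of 161 CPM, and without the library that stands apart the lowest was 90.2 CPM. In treated GA muscle its log2 fold changes against DEX ran between -0.34 and 0.0004 and none passed. Over all 8 DEX-injected groups it was 0.59 ± 0.20 above non-treated GA on the log2 scale (adjusted p = 0.0304). This call was lost without non-treated mouse 1, 2 or 5, and with the run as a term.

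In SO, Nr4a1 stood at 35, 40.9, 80.6 and 79.1 CPM in DEX libraries, against 28.1, 30.9, 31, 35.7 and 55.2 CPM in non-treated libraries. The groups overlapped and the log2 fold change of 0.70 ± 0.34 did not pass (adjusted p = 0.136). It passed without the 3 libraries that stand apart (0.72, adjusted p = 0.0176), but not with SO DEX mouse 4 left out as well (0.54, adjusted p = 0.104). The treated SO libraries ran between 11.5 and 114 CPM with a median of 43.55 CPM, and both extremes were libraries that stand apart.

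Nr4a2 (chr2:57106830-57124003, minus strand), the gene of Nurr1, known best for its role in dopamine neurons, was scarce in both muscles. In SO it stood at 2.68, 1.48, 4.69 and 3.52 CPM in DEX libraries, against 1.12, 1.16, 0.948, 1.72 and 1.59 CPM in non-treated libraries. DEX mouse 2 lay inside the non-treated range and the other DEX libraries above it, and the log2 fold change was 1.24 ± 0.29 (adjusted p = 0.00324). In treated SO muscle it was lower than in DEX in 5 of 7 groups, at a median of 1.29 CPM over the 34 libraries, with log2 fold changes of -0.82 (JGT02 100, not passed) to -1.63 (RSV). Without SO DEX mouse 3 the Nr4a2 calls of JGT02 400, JGT03 100 and JGT03 400 were lost (adjusted p = 0.0605 to 0.0897). Nr4a2 passed in 0 of 7 SO groups with the run of libraries, described above, as a term, and in 7 of 7 without the 3 libraries that stand apart. In GA it stood at 0.833, 1.96, 1.54 and 2.22 CPM in DEX libraries, against 1.37, 1.11, 1.2, 1.55 and 2.16 CPM in non-treated libraries. These groups overlapped throughout, with a log2 fold change of 0.15 ± 0.24 (adjusted p = 0.808).

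The next genes encode partners in immediate-early transcription: Fos and Junb code for subunits that dimerise into AP-1, and Egr1 codes for a zinc finger activator induced by the same kinases. In SO, Fos (chr12:85473890-85477273, plus strand) stood at 8.89, 6.82, 39.7 and 69.4 CPM in DEX libraries, against 3.3, 7.25, 7.32, 6.33 and 15.7 CPM in non-treated libraries. DEX mice 3 and 4 lay above every non-treated library, and mice 1 and 2 among them. Its log2 fold change was 1.97 ± 0.65 (adjusted p = 0.0282), and 1.23 with an adjusted p of 0.139 without SO DEX mouse 4 and the 3 libraries that stand apart. The Fos call was also lost without DEX mouse 3 (adjusted p = 0.0629) and without any of non-treated mice 1 to 4 (0.0524 to 0.0721).

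Junb (chr8:84974484-84978718, minus strand) rested on the same library. It stood at 13.7, 16.9, 22 and 143 CPM in SO DEX libraries, against 7.35, 14.5, 15.2, 19.6 and 15.6 CPM in SO non-treated libraries. The other DEX libraries were close to the non-treated range and mouse 4 lay far above it. The log2 fold change was 1.77 ± 0.45 (adjusted p = 0.00599), and 0.29 with an adjusted p of 0.357 without SO DEX mouse 4 and the 3 libraries that stand apart.

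Egr1 (chr18:34859823-34864984, plus strand) stood at 18.3, 33.9, 40.3 and 108 CPM in SO DEX libraries, against 9.6, 17.9, 18.8, 40.1 and 43.5 CPM in SO non-treated libraries. Mouse 4 again was the only DEX library above the non-treated range, and the log2 fold change of 0.95 ± 0.50 did not pass (adjusted p = 0.174). SO DEX mouse 4 was thus the highest library of all 43 SO libraries for Fos, Junb and Egr1 alike. The part of its high macrophage markers in these levels was not tested.

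In GA, Fos stood at 6.73, 22.3, 6.1 and 34.5 CPM in DEX libraries, against 2.11, 4, 13.7, 10.2 and 4.53 CPM in non-treated libraries. DEX mice 2 and 4 were high, and the log2 fold change of 1.34 ± 0.58 did not pass (adjusted p = 0.162). Junb was 0.77 ± 0.41 higher in GA DEX on the log2 scale (adjusted p = 0.277) and passed at 0.78 without the 3 libraries that stand apart (adjusted p = 0.0327). Egr1 was 0.76 ± 0.38 higher (adjusted p = 0.245). Junb stood at 7.56 to 31.2 CPM in GA DEX and 5.11 to 16.6 CPM in GA non-treated muscle. Egr1 stood at 11.8 to 37.6 CPM and 7.89 to 21.5 CPM in these groups, so the groups overlapped for each gene.

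Against DEX, the treated SO groups had lower Junb in 6 of 7, lower Egr1 in 3 of 7 and lower Fos in 2 of 7 comparisons, and all 21 fold changes were below 0. Log2 fold changes of Junb ran between -0.61 (JGT02 100, not passed) and -2.22 (JGT04 400). Those of Egr1 lay between -0.69 and -1.76, and those of Fos between -0.80 and -2.24. Treated SO libraries held Junb at 8.27 to 82.2 CPM with a median of 11.95 CPM, and the highest was a library that stands apart, without which the highest was 28.7 CPM. Without SO DEX mouse 4 and the 3 libraries that stand apart, Junb passed in 1 of 7 SO groups, and Fos and Egr1 in 0 of 7. With the run as a term, Junb and Egr1 each passed in 1 of 7 SO groups and Fos in 0 of 7. All SO JGT03, JGT04 and RSV libraries lay in another run than SO DEX. In GA, Fos, Junb and Egr1 passed in 0 of 7 treated groups by edgeR. Without the 3 libraries that stand apart, Junb (-1.14, adjusted p = 0.0117) and Egr1 (-1.34, adjusted p = 0.0212) passed with JGT02 400. By DESeq2, Egr1 passed in 1, and at an unadjusted p under 0.05 the JGT02 400 group had all 3 lower, at log2 fold changes of -1.40, -1.13 and -1.33, and the JGT04 100 group had Fos lower at -1.22.

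**Figure D2:**
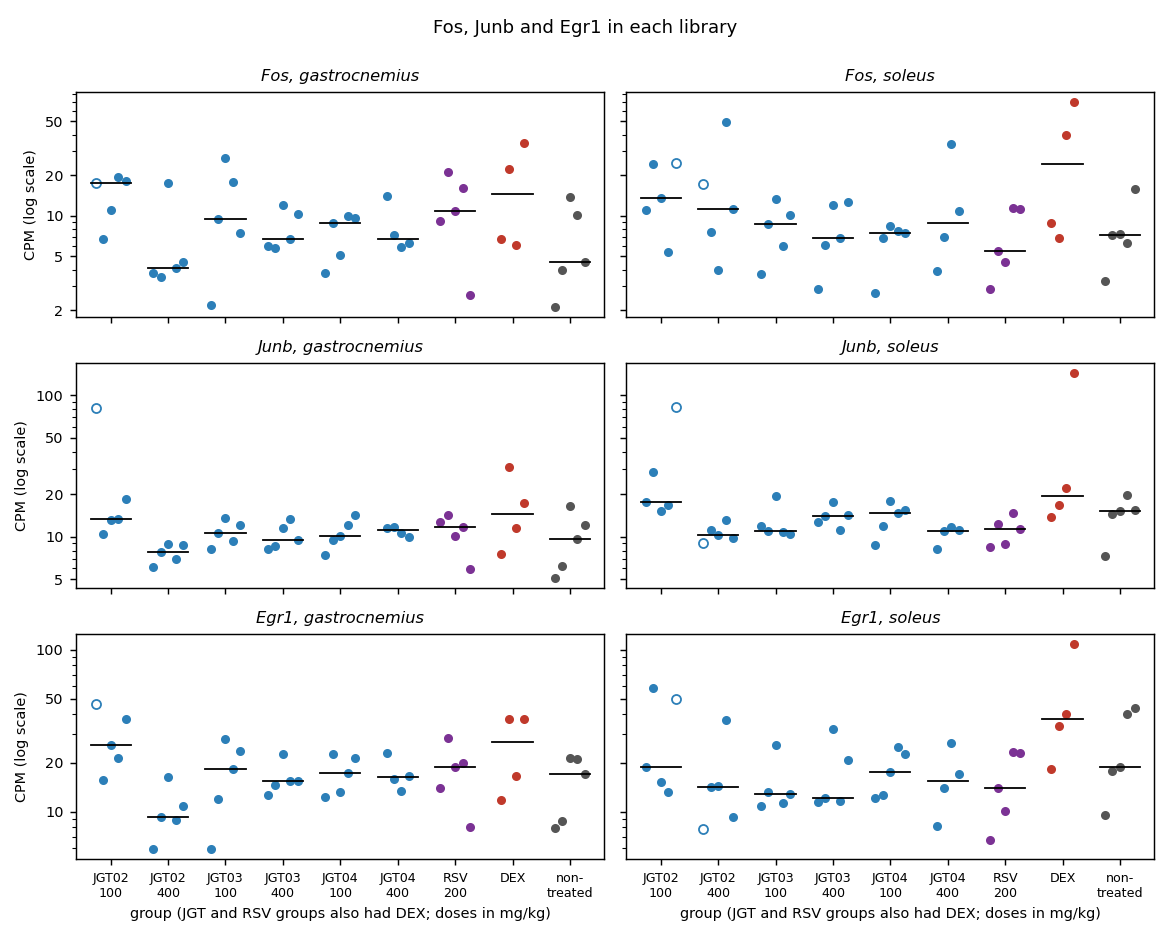
Fos, Junb and Egr1 in every library of gastrocnemius (GA) and soleus (SO), in CPM on a log axis, by group. Points are libraries, open circles are the 3 libraries that stand apart, and black bars are group medians. In SO the highest point of each gene is DEX mouse 4, at 69.4, 143 and 108 CPM.

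Atf3 (chr1:191170296-191218039, minus strand) codes for a CREB-family factor that is induced by injury and by the integrated stress response. Over all SO libraries its highest level was 47.4 times the lowest, the widest range of the 8, followed by Fos at 26 times. That rank rests on SO JGT02 400 mouse 1, a library that stands apart, at 2.07 CPM, and the next lowest level was 4.49 CPM. In SO, Atf3 stood at 47.8, 6.82, 16.6 and 98.1 CPM in DEX libraries, against 7.11, 11.1, 11, 4.49 and 22.9 CPM in non-treated libraries. DEX mice 1 and 4 were high while mice 2 and 3 lay within the non-treated range. The log2 fold change was 1.91 ± 0.66 (adjusted p = 0.0368), and the call was lost without SO DEX mouse 4 (1.07, adjusted p = 0.305) or mouse 1 (0.0598), and without any of non-treated mice 1 to 4 (0.0628 to 0.0915). Treated SO groups were lower than DEX in 2 of 7 comparisons, JGT04 100 at -2.61 ± 0.68 and RSV at -2.33 ± 0.67 (adjusted p = 0.0134 and 0.0193), and neither Atf3 call held without SO DEX mouse 4 (adjusted p = 0.145 and 0.197). With the 3 libraries that stand apart left out too, JGT04 100 passed (-1.76, adjusted p = 0.0475) and RSV did not (-1.49, adjusted p = 0.0809). With the run as a term, neither JGT04 100 nor RSV passed for Atf3. In GA it stood at 3.85, 2.6, 15.5 and 5.86 CPM in DEX libraries, against 1.8, 2.96, 1.91, 2.85 and 1.18 CPM in non-treated libraries. Its GA log2 fold change of 1.69 ± 0.76 did not pass (adjusted p = 0.178), and single treated GA libraries reached 23.5 CPM.

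Gadd45b (chr10:80930073-80932204, plus strand), whose product binds and activates a kinase upstream of p38 signalling, followed a different course. It was higher in GA DEX than in non-treated GA muscle and higher than in DEX in 4 of the 7 treated GA groups. It stood at 24.5, 21.8, 26.7 and 16.6 CPM in GA DEX libraries, against 12.7, 13.8, 13.8, 14.5 and 8.32 CPM in GA non-treated libraries. The groups did not overlap, and the log2 fold change was 0.83 ± 0.18 (adjusted p = 0.00161). Treated GA libraries held 13.3 to 50.6 CPM, and 25.5 to 50.6 CPM with a median of 38.2 CPM without the library that stands apart.

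In order of their means, Gadd45b in GA stood at 46.1 ± 4.03 CPM in RSV (SD, n = 5), 42.8 ± 3.71 in JGT04 400 (n = 4), 40.2 ± 5.58 in JGT04 100 (n = 5) and 36.9 ± 3.99 in JGT02 400 (n = 5). It went on with 35.6 ± 6.23 in JGT03 400, 31.6 ± 4.07 in JGT03 100 and 27.1 ± 7.73 CPM in JGT02 100 (SD, n = 5 each), and ended with 22.4 ± 4.36 CPM in DEX (SD, n = 4) and 12.6 ± 2.49 CPM in non-treated muscle (SD, n = 5). Neighbouring treated groups lay within each other's spread. The 4 highest groups passed against DEX, at log2 fold changes of 1.04 ± 0.18 (RSV, adjusted p = 0.000615), 0.93 ± 0.18 (JGT04 400, 0.00303), 0.84 ± 0.17 (JGT04 100, 0.00621) and 0.72 ± 0.17 (JGT02 400, 0.0378). With the run as a term, 1 of these 4 calls was left, that of JGT02 400 (0.72, adjusted p = 0.044). The JGT02 400 call was lost without any of 7 single libraries, among them GA DEX mice 1, 2 and 4, and that of JGT04 100 without GA DEX mouse 4 (0.73, adjusted p = 0.0532). Most JGT04 libraries and all RSV libraries of GA lay in another run than GA DEX, whereas JGT02 400 shared the run of DEX. Over all 8 DEX-injected groups, Gadd45b was 1.45 ± 0.14 above non-treated GA (adjusted p = 3.78e-10).

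In SO, Gadd45b stood at 11, 14.4, 7.54 and 19.4 CPM in DEX libraries, against 10.3, 11, 11.3, 8.12 and 12.7 CPM in non-treated libraries. The groups overlapped, with a log2 fold change of 0.29 ± 0.25 (adjusted p = 0.411), and no treated SO group passed against DEX by edgeR or DESeq2. Without SO DEX mouse 4 and the 3 libraries that stand apart, Gadd45b was higher than in SO DEX with JGT04 100 (0.66, adjusted p = 0.0107) and RSV (0.56, adjusted p = 0.0249). Over all 8 DEX-injected groups, Gadd45b was 0.46 ± 0.18 above non-treated SO (adjusted p = 0.0755), and it was the 1 gene of the 8 at an unadjusted p under 0.05.

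**Figure D3:**
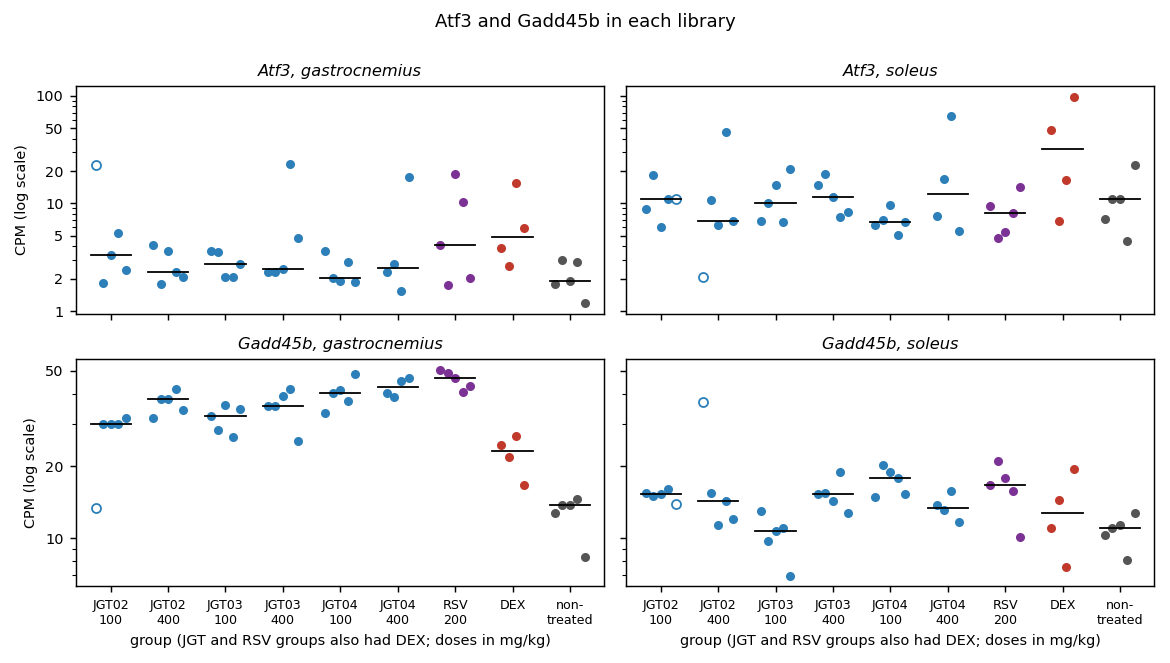
Atf3 and Gadd45b in every library of gastrocnemius (GA) and soleus (SO), in CPM on a log axis, by group. Points are libraries, open circles are the 3 libraries that stand apart, and black bars are group medians. Gadd45b in GA has its highest mean in RSV, at 46.1 CPM, with 22.4 CPM in DEX and 12.6 CPM in non-treated muscle.

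Counted over the 8 genes, GA DEX against non-treated muscle gave 2 higher and 0 lower calls (Nr4a3 and Gadd45b), in a comparison that called 4.31% of all genes higher and 8.38% in either direction. The median log2 fold change was 0.80 over the 8 genes and -0.01 over all genes tested. Without the 3 libraries that stand apart 26.4% of all genes were called in either direction, and 4 of the 8 passed. In SO, DEX against non-treated muscle gave 5 higher and 0 lower calls, with 11.3% of all genes called higher and 20.8% in either direction. The median was 1.51 over the 8 genes and 0.05 over all genes tested. Without SO DEX mouse 4 and the 3 libraries that stand apart, 2 of the 8 passed, Nr4a2 and Nr4a3, with 36.1% of all genes called in either direction. The mean of all 8 DEX-injected groups gave 2 higher calls in GA, Nr4a1 and Gadd45b, where 10.3% of all genes were higher. In SO it gave 0 of 8 by edgeR and by DESeq2, where 17.8% of all genes were called. Since the names were chosen with such results known, nothing is read from these shares.

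Averaged over the 6 extract groups of GA, Nr4a3 was lower and Gadd45b higher than in DEX, in a comparison that called 0.773% of all genes lower and 0.483% higher. Nr4a3 was at -2.27 ± 0.26 (adjusted p = 1.86e-06) and Gadd45b at 0.66 ± 0.14 (adjusted p = 0.0129), a call lost without GA DEX mouse 2 or mouse 4. In SO the same comparison had 6 of the 8 lower, with 8.64% of all genes called lower. These were Nr4a2 (-1.12), Nr4a3 (-1.88), Fos (-1.51), Junb (-1.77), Egr1 (-1.44) and Atf3 (-1.76), at adjusted p-values of 3.3e-06 to 0.0208. Without SO DEX mouse 4 and the 3 libraries that stand apart, Nr4a2 and Nr4a3 were left. With the run as a term, Atf3 alone passed (-3.34, adjusted p = 0.0456).

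By group in GA, Nr4a3 was called lower in each comparison with DEX. The share of all genes called lower was 1.48% with JGT02 100, 0.4% with JGT02 400, 0.0069% with JGT03 100, 0.345% with JGT03 400, 0.753% with JGT04 100, 0.98% with JGT04 400 and 0.711% with RSV. Gadd45b was called higher in 4 of these comparisons, in which the share of all genes called higher was 0.407% with JGT02 400, 0.628% with JGT04 100, 1.06% with JGT04 400 and 0.663% with RSV. In SO the comparisons with DEX called 1 of the 8 genes lower with JGT02 100 (4.02% of all genes lower), 4 with JGT02 400 (7.89%), 4 with JGT03 100 (5.07%), 3 with JGT03 400 (2.08%), 5 with JGT04 100 (5.59%), 2 with JGT04 400 (3.01%) and 6 with RSV (7.56%). Every one of the 25 SO calls was lower, and the 11 GA calls were Nr4a3 lower 7 times and Gadd45b higher 4 times. With the run as a term there were 6 calls in GA and 6 in SO. Without the 3 libraries that stand apart, there were 15 calls in GA, with Gadd45b in 6 groups, and 37 in SO. The SO calls were those of Nr4a2, Nr4a3 and Junb in 7 groups each, Egr1 in 6, Atf3 in 5, Fos in 4 and Nr4a1 in 1. More of all genes were called there too, 823 against 117 for JGT02 400 in GA and 5390 against 1876 for RSV in SO. In the JGT03 100 group of GA, where 3 of 14484 genes passed, Nr4a3 was the 1 gene called lower.

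**Figure D4:**
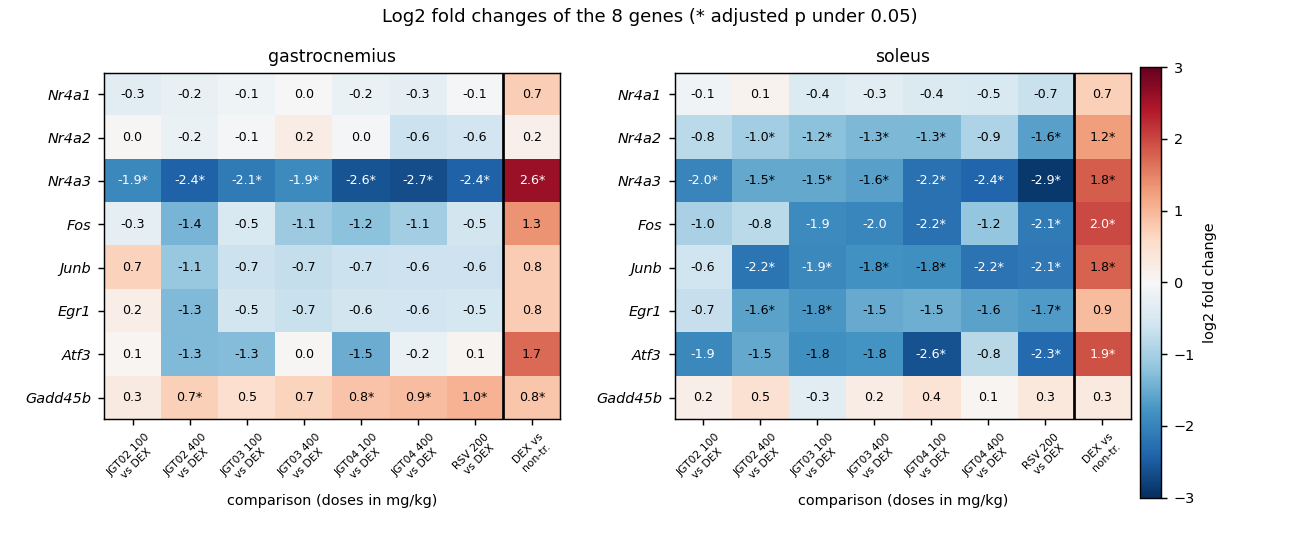
Log2 fold changes of the 8 genes, with each treated group against DEX and the DEX group against non-treated muscle, in gastrocnemius (GA) and soleus (SO). Each cell gives the fitted log2 fold change, red above 0 and blue below, and a star marks an adjusted p under 0.05. Nr4a3 lies below 0 in every treated group of both muscles, at -1.53 to -2.89, and Gadd45b in GA lies above 0 in every treated group, at 0.27 to 1.04.

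Dose was compared as the mean of the 3 extract groups at 400 mg/kg against the 3 at 100 mg/kg. By edgeR 0 of the 8 genes passed in GA, where 0.2% of all genes were called, and 0 of the 8 in SO, where no gene was called. DESeq2 also called none of the 8. At an unadjusted p under 0.05 there were 3 in GA, with log2 differences of -0.63 ± 0.23 for Junb, -0.55 ± 0.22 for Egr1 and 0.24 ± 0.10 for Gadd45b, and 1 in SO, Junb at -0.62 ± 0.26. The GA library that stands apart, with Junb at 80.8 CPM, is in the 100 mg/kg arm, as is SO JGT02 100 mouse 5 with 82.2 CPM. These are the 2 libraries with the macrophage sums of 1110 and 1300 CPM. Without the 3 libraries that stand apart, edgeR again called 0 of the 8 genes for dose in GA and 0 in SO. Over all genes that fit called 243 in GA and 0 in SO. The part of macrophages in the dose values was not tested. Nr4a3 differed by -0.11 ± 0.23 in GA and 0.08 ± 0.21 in SO.

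Between the muscles at rest, 2 of the 8 genes differed, in a joint fit that called 45.8% of all genes. Nr4a1 averaged 35.4 ± 10.7 CPM in non-treated SO and 82.4 ± 21.9 CPM in non-treated GA (SD, n = 5 each), a log2 difference of -1.22 ± 0.31 (adjusted p = 0.000622). Atf3 averaged 11.1 ± 6.88 CPM in SO and 2.18 ± 0.775 CPM in GA, a log2 difference of 2.34 ± 0.72 (adjusted p = 0.00561). For both genes the libraries of the muscles did not overlap. All non-treated GA libraries lay in another run than the SO ones. The response to DEX in SO less that in GA passed for 0 of the 8 genes by edgeR and by DESeq2, while 8.36% of all genes passed by edgeR. Nr4a2, at 1.08 ± 0.38, was the 1 gene at an unadjusted p under 0.05 (adjusted p = 0.0652), and without the 3 libraries that stand apart Nr4a2 and Gadd45b passed. So Nr4a2, called in SO DEX and not in GA DEX, is not shown to differ between the muscles at the threshold used.

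Inside the groups, Fos, Junb and Egr1 moved together. After the group mean was taken off log2 CPM, 6 of 56 pairs passed for both Pearson and Spearman correlation over the 43 libraries of a muscle (two-sided permutation within groups, Benjamini-Hochberg over the 56 pairs). These were Fos with Egr1 (r = 0.869, rho = 0.844 in GA, and r = 0.768, rho = 0.718 in SO), Junb with Egr1 (0.735 and 0.792 in GA, 0.759 and 0.859 in SO) and Fos with Junb (0.572 and 0.67 in GA, 0.613 and 0.631 in SO). Their adjusted p-values were 0.000112 to 0.00056, from raw values that reach 1e-05, the smallest that 100000 resamples can give. Without the 2 libraries farthest out, r stayed at 0.841, 0.772 and 0.59 in GA and at 0.71, 0.784 and 0.566 in SO. Nr4a3 was in none of these 6 pairs. Without the 3 libraries that stand apart 13 pairs passed, and the further 7 tied Nr4a1 to Nr4a3, Fos and Egr1 in GA and to Fos, Junb and Egr1 in SO, and Fos to Atf3 in SO. Between GA and SO libraries with the same treatment and mouse number, 0 of 8 genes passed, by Pearson's r and by Spearman's rho. The lowest unadjusted p was that of Atf3 (r = -0.347, permutation p = 0.0368, adjusted p = 0.295).

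**Figure D5:**
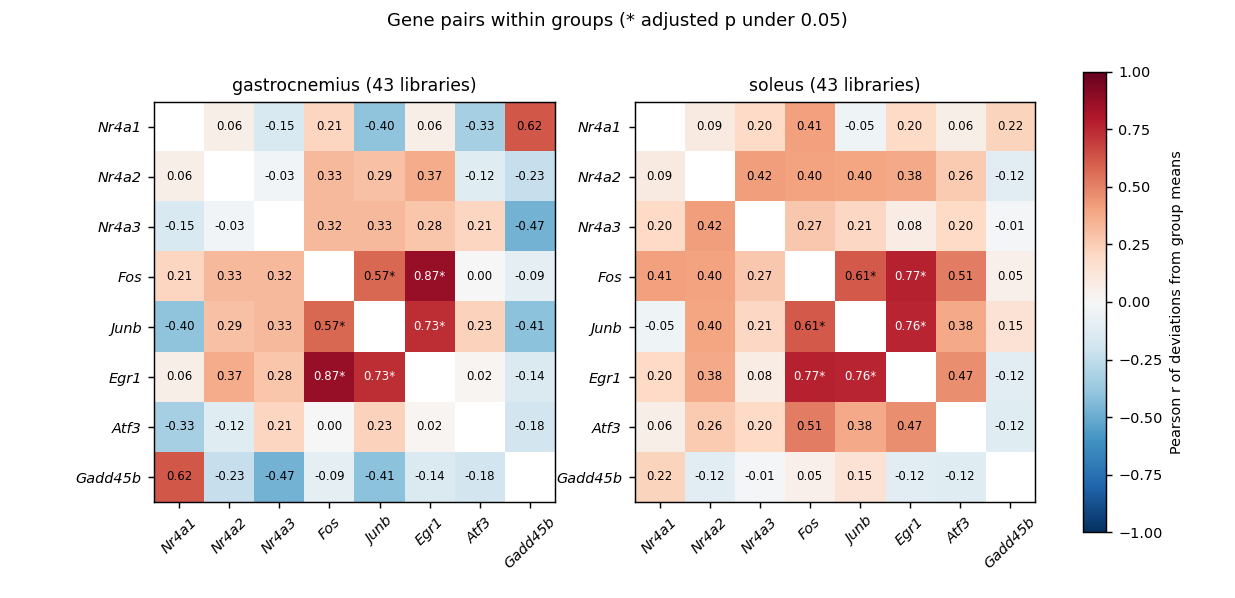
Pearson correlations between the 8 genes within groups, over 43 libraries of gastrocnemius (GA) and of soleus (SO), after subtraction of group means from log2 CPM. Cells carry r, from -0.47 to 0.869, with red above 0 and blue below and a star where the adjusted p of r is under 0.05, and the pairs of Fos, Junb and Egr1 are the high block in both muscles.

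As a description over the 43 libraries of each muscle, with library and treatment differences shared by all genes, the closest neighbours by Spearman's rho were named for each gene. The search covered genes at a mean of at least 1 CPM. It left out predicted genes, whose names start with Gm and a digit or end in Rik. Nr4a1 was closest to Dusp1, a phosphatase gene of the immediate-early class, with rho of 0.779 in GA and 0.778 in SO. Fos was closest to Egr1 in both muscles (0.862 in GA and 0.676 in SO), followed in GA by Ier2 (0.806). Junb was closest to Egr1 (0.828 in GA and 0.815 in SO), followed in SO by Zfp36 (0.812), whose product destabilises AU-rich mRNAs. Atf3 was closest to Xirp1 in GA (0.801), which codes for a protein of injured myofibres, and to Enah in SO (0.766). The heat-shock gene Hspa1a was the next for Atf3 in both muscles (0.723 in GA and 0.74 in SO). Nr4a3 was closest to Ctsz in GA (0.635) and P4ha1 in SO (0.795), and Nr4a2 to Tgoln1 in GA (0.591) and Mertk in SO (0.717). Gadd45b was closest to the activin receptor gene Acvr1b in GA (0.911) and to Pik3ip1 in SO (0.653). Without the libraries that stand apart the closest gene was the same for each, except for Nr4a3 in GA, where Fam78b took the place of Ctsz.

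Other immediate-early and early response genes were listed by name, 60 in all, of which 57 passed the filter in GA and 58 in SO. In GA DEX against non-treated muscle, 7 were higher and 1 lower, beside 4.31% of all genes higher, with a list median log2 fold change of 0.16 against -0.01 over all genes. Arc, a plasticity gene with immediate-early regulation, was at 2.30 ± 0.57, the small Maf gene Maff at 1.01 ± 0.18, the clock repressor gene Bhlhe40 at 1.00 ± 0.18 and Ier3 at 1.00 ± 0.18. Gadd45g, a paralog of Gadd45b, was lower by contrast, at -0.69 ± 0.22 (adjusted p = 0.0356). Over all 8 DEX-injected groups of GA, 17 were higher and 5 lower, beside 10.3% of all genes higher, among them the glucocorticoid-responsive clock gene Per1 at 1.12 ± 0.16.

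In SO DEX against non-treated muscle, 21 of the 58 were higher and 2 lower, beside 11.3% of all genes higher, with a list median of 0.46 against 0.05 over all genes. Ankrd1, a stretch-responsive titin-binding gene, was at 2.92 ± 0.67, the cytokine feedback gene Socs3 at 2.92 ± 0.68, the small GTPase gene Rrad at 1.70 ± 0.54 and Ier3 at 1.52 ± 0.12 (adjusted p of 2.13e-11 for Ier3 and of 0.00264 to 0.022 for the others). Nfil3 (-0.87 ± 0.21) and Rgs2 (-0.73 ± 0.18) were lower. Averaged over the 6 extract groups of SO, 25 of the 58 were lower, beside 8.64% of all genes, and 0 higher than in DEX, with Ankrd1 at -2.72 ± 0.42 and Socs3 at -2.14 ± 0.44. In GA the same comparison had 1 lower and 0 higher, beside 0.773% of all genes lower. Most of the SO extract libraries lay in another run than SO DEX. With the run as a term, 76 of all genes were called for the SO extract mean, against 2059 without it. No count of the list is given for that fit. Without SO DEX mouse 4 and the 3 libraries that stand apart, SO DEX had 18 higher and 7 lower with a median of 0.24. Over all genes, 5338 were called in that comparison, 2780 of them higher. In the same fit the SO extract mean had 4 higher and 13 lower with a median of -0.21, beside 3665 of all genes called, 1692 of them higher. Markers of other cell types moved as well. In GA DEX, 4 of 5 adipocyte markers were higher, with sums of 179 to 232 CPM in DEX and 132 to 164 CPM in non-treated libraries, and 3 of 5 tendon and 2 of 7 endothelial markers were lower. Summed fibroblast markers were 330 to 428 CPM in GA DEX and 518 to 712 CPM in non-treated GA libraries. Summed satellite cell markers were 7.25 to 10.2 CPM and 10.3 to 11.4 CPM in the same groups. Over all DEX-injected GA groups 7 of 7 endothelial markers were lower, and the part of these in the GA levels was not tested. In SO, all 6 Schwann markers were higher in DEX than in non-treated SO muscle, with sums of 417, 68.2, 379 and 36.1 CPM in DEX libraries and of 38.2 to 87.4 CPM in non-treated libraries, none of the markers at 0. All 6 were lower in the extract mean than in DEX. All 5 adipocyte markers were higher in DEX as well, with sums of 233 to 665 CPM against 216 to 249 CPM in non-treated libraries. Summed smooth muscle markers were 219 to 334 CPM in SO DEX and 155 to 179 CPM in non-treated SO libraries. SO DEX mouse 4, the highest for Fos, Junb, Egr1 and Atf3, had the lowest Schwann and adipocyte sums of its group. The part of these cell types in the levels of Nr4a2, Nr4a3 and the other genes was not tested, and in whole muscle a change in cell number and a change in RNA per cell cannot be told apart.

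Among genes of glucose use, a process in which the Nr4a receptors are known to act, 1 of 14 was higher and 1 lower in GA DEX, and 0 higher and 2 lower in SO DEX. These and the counts that follow stand beside 8.38% of all genes called in GA DEX and 20.8% in SO DEX, in either direction. Ppp1r3c, which codes for a glycogen-targeting phosphatase subunit, was lower in both, at -0.91 ± 0.23 in GA (adjusted p = 0.00926) and -1.26 ± 0.32 in SO (adjusted p = 0.00585). Fbp2 was higher in GA DEX at 1.00 ± 0.30, and the glycogen synthase gene Gys1 lower in SO DEX at -0.80 ± 0.23. Among partners and co-repressors, 2 of 10 were higher in GA DEX, among them the coactivator gene Ncoa1 at 0.33 ± 0.09. In SO DEX 2 were higher, the EGR co-repressor genes Nab2 (0.84 ± 0.29) and Nab1 (0.59 ± 0.13), and 2 lower, Ncoa2 (-0.50 ± 0.12) and Rxrb (-0.23 ± 0.07). Of 24 upstream kinase and transcription factor genes, 1 was higher in GA DEX, Elk4 at 0.25 ± 0.07, while 3 were higher and 5 lower in SO DEX. Mapk3, which codes for a kinase that acts on Egr1 and Fos transcription, was at 0.45 ± 0.10 there. Integrated stress genes, the setting of Atf3 induction, had 4 of 14 higher in SO DEX, with the serine and asparagine synthesis genes Phgdh at 2.04 ± 0.54, Asns at 1.74 ± 0.43 and Psat1 at 1.66 ± 0.30 and the chaperone gene Hspa5 at 0.65 ± 0.15. In GA DEX none of 13 was higher and 2 were lower, Ddit4 at -1.15 ± 0.36 and Mdm2 at -0.29 ± 0.06.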

How the data were processed

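Messenger RNA of 43 GA and 43 SO libraries was sequenced as directional 100-base read pairs, per the labels' protocols. The submitters' processing notes name RSEM 1.3.3, STAR 2.7.3a, FastQC 0.11.9, Trim Galore 0.6.5 and the GRCm38 build, without their settings. The deposited table holds the authors' expected counts per gene symbol, not scaled to depth. Of its values 7.96% were not whole, and all were rounded to whole numbers before testing. Total counts differed by less than 2-fold between libraries, and counting error is largest for scarce genes such as Nr4a2.

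Each muscle was fitted with edgeR 4.0.16 in R 4.3.3 (filterByExpr, TMM scaling, quasi-likelihood test over its 9 groups, Benjamini-Hochberg adjustment over all genes tested, threshold 0.05). A joint fit of all 86 libraries compared the muscles. A standard error is the size of the log2 fold change divided by the root of the F statistic. The edgeR steps were run on counts simulated for the DEX and non-treated groups, with the same spread for all genes. The correlation steps were run on simulated pairs. These simulations cover neither the fits of 9 groups nor libraries that stand apart. Correlations used log2 CPM with a prior count of 2. The alternatives were DESeq2 1.42.0, DESeq2 size factors, no filter on low counts, a prior count of 0.5, a replicate block, the run of libraries as a term, fits of the compared groups alone, and left-out libraries. Leaving out DEX mouse 4 of a muscle together with the 3 libraries that stand apart was chosen after seeing the data.

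All 8 genes are named. From each pathway list up to 4 genes per direction and comparison could be named, those with the largest fold change past the threshold at a mean of at least 1 CPM. The 3 genes most like each of the 8 by Spearman's rho could be named too. Some genes of the lists are not reported here. Members, gene lists and marker lists were chosen with earlier results of these data known. The labels number the mice within each group and do not say whether a number is the same animal in GA and SO, and p-values measure the spread between these samples. Gene positions are those of GENCODE vM21 on GRCm38, and promoters those of RefSeq on GRCm38.p6.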

Additional observations from a re-analysis of the deposited data

Results flagged for a closer look

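In each of 144 groups, 8 genes in 18 groups, the highest or lowest library was compared with the others by Dixon's gap ratio. A library stood apart in 12 groups, 7 in GA and 5 in SO, 5 on the high and 7 on the low side, and chance gives about 7.2 (1 in 20).

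In 4 of these groups the library is one of those that stand apart in fibre markers. GA JGT02 100 mouse 1 had Nr4a1 at 18.9 CPM (96.8 to 161 CPM in the others), Junb at 80.8 CPM (10.4 to 18.5 CPM) and Gadd45b at 13.3 CPM (29.9 to 31.9 CPM). SO JGT02 400 mouse 1 had Gadd45b at 37.2 CPM (11.3 to 15.4 CPM).

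The remaining ones were spread over groups. Nr4a1 was low in GA JGT04 400 mouse 4, at 90.2 CPM (118 to 124 CPM in the others), and Nr4a2 low in GA JGT03 100 mouse 5, at 1.37 CPM (1.61 to 1.65 CPM). Nr4a3 was low in SO non-treated mouse 4, at 0.861 CPM (2.0 to 2.01 CPM). Fos was high in GA JGT02 400 mouse 3, at 17.4 CPM (3.51 to 4.57 CPM), and low in SO JGT04 100 mouse 1, at 2.67 CPM (6.82 to 8.4 CPM). SO JGT03 100 mouse 3 was high for both Junb, at 19.5 CPM (10.5 to 12.0 CPM), and Egr1, at 25.7 CPM (10.8 to 13.3 CPM). Gadd45b was low in GA non-treated mouse 5, at 8.32 CPM (12.7 to 14.5 CPM).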

How the results depend on the processing

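Counts are of the 8 genes called. GA DEX against non-treated gave 2, and 4 without the 3 libraries that stand apart or with only the groups compared. SO DEX against non-treated gave 5, 6 without the 3 libraries, 3 with only the groups compared and 2 without those libraries and SO DEX mouse 4. The run of libraries as a term left 1 of 2 for all DEX-injected groups of GA, 6 of 11 for the 7 GA treatments, 1 of 6 for the SO extract mean and 1 of 2 between the non-treated muscles, and gave 6 calls for the 7 SO treatments, not all of them among the 25 of the full fit. The SO treatments gave 14 with only the groups compared. All DEX-injected groups of SO gave 0, and 1 without the 3 libraries, with or without SO DEX mouse 4, or with the run term. The difference of DEX responses between muscles gave 0, and 2 without the 3 libraries, also with DEX mouse 4 of either muscle left out. Without the 3 libraries the treatments gave 15 calls in GA and 37 in SO, and 13 pairs passed and not 6. Where not shown by construction, the cause was not tested.

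Leaving out 1 mouse at a time gave 2 to 2 (GA DEX), 1 to 2 (GA, all DEX-injected), 6 to 15 (GA treatments), 1 to 3 (GA extract mean), 2 to 5 (SO DEX), 0 to 1 (SO, all DEX-injected), 11 to 36 (SO treatments), 2 to 6 (SO extract mean), 2 to 2 (non-treated muscles) and 0 to 1 (difference of DEX responses). The low ends came without DEX mouse 4 for the GA and SO treatments, SO DEX and the SO extract mean. Nr4a2 in GA DEX changed sign without GA DEX mouse 4 (-0.031, within a range of -0.031 to 0.374) and without that mouse and the 3 libraries (-0.035), and was never called there.

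Correlations of deviations could not decide whether a mouse number marks the same animal in both muscles. Within a muscle, libraries with the same number in other groups are different mice by design. Their median correlation was -0.005 in GA and 0.01 in SO, against 0 and 0.003 for other numbers. Between the muscles, within a treatment, the median was 0.016 for the same number and 0.001 for other numbers. There 11 of 43 correlated best with their own number, and the number expected by chance is not given here. A low correlation does not exclude a shared animal. Within a muscle, the replicate block took the mouse number as a term across groups, which joins different mice. It therefore cannot address whether an animal is shared between the muscles. This block gave 2 calls in GA DEX, 5 in SO DEX, 10 of 11 for GA treatments and 28 for SO treatments. The call it lost among the gene results was that of Nr4a3 in GA JGT03 100 (-1.99, adjusted p = 0.0557), and it changed no other call among them. DESeq2 gave 13 calls for GA treatments and 30 for SO treatments, against 11 and 25. Of the 64 gene results followed (the calls, and every gene in DEX against non-treated muscle), DESeq2 and its size factors left each on its side of the threshold, and no filter on low counts lost 2. In the difference of DEX responses, 45.6% of all called genes were higher with TMM and 32.9% with DESeq2 size factors.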

Other observations

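Genes of the lists described above also differed between the muscles of non-treated mice, in a comparison that called 45.8% of all genes. Of 14 genes of glucose use, 10 were lower in SO than in GA and 0 higher, with a median log2 difference of -1.41 over the list and 0.00 over all genes tested. Pfkfb3, whose product sets the level of a glycolytic activator, averaged 24.3 ± 5.5 CPM in SO and 585 ± 79.9 CPM in GA (SD, n = 5 each). The AMPK subunit gene Prkag3 averaged 12.2 ± 2.65 CPM in SO and 178 ± 9.84 CPM in GA. Of 58 other early response genes, 24 were higher in SO and 6 lower, with the GTPase gene Rrad at 49.2 ± 20.5 CPM in SO and 4.36 ± 1.49 CPM in GA. The non-treated GA and SO libraries lay in different runs of the table, and muscle and run cannot be told apart in these values.

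Over all 8 DEX-injected groups against non-treated muscle, the glycogen-targeting gene Ppp1r3c was lower in both muscles. It averaged 102 ± 52 CPM in injected GA (SD, n = 38) and 407 ± 42.7 CPM in non-treated GA (SD, n = 5), a log2 fold change of -2.09 ± 0.14 (edgeR, adjusted p = 1.93e-14). In SO it averaged 106 ± 32 CPM in injected and 315 ± 61.3 CPM in non-treated muscle, a log2 fold change of -1.59 ± 0.19 (adjusted p = 2.73e-07). The early response gene Ier3 was higher in both, at 1.02 ± 0.14 in GA and 1.36 ± 0.10 in SO. Phgdh, an enzyme gene of serine synthesis, was higher at 1.17 ± 0.25 in GA and 1.87 ± 0.44 in SO.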
